A study of Mus musculus with 9 samples.

Results

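The metalloproteinases and their inhibitors were examined in mouse embryonic fibroblasts (MEFs) that carry or lack enzymes methylating lysine 9 of histone H3 (H3K9). Members were all genes of the count table whose symbol is Mmp, Adam, Adamts or Timp with a number and an optional letter, plus Reck, a rule that uses the symbol and no measured value. The rule found 80 of 47937 genes, which were 23 Mmp, 33 Adam, 19 Adamts and 4 Timp genes and Reck. RNA sequencing had been performed on 9 libraries, 3 for each of 3 genotypes. WT cells are, per the study's methods, a MEF clone (E1c) with a conditional Eset1 allele and a tamoxifen-inducible Cre, and with Eset1 in place they serve as the control. In S1S2 cells Suv39h1 and Suv39h2 are disrupted. In G9Gl cells it is G9a and Glp, the products of Ehmt2 and Ehmt1. Both mutants were derived from E1c with CRISPR/Cas9, each as 1 clone picked because the targeted proteins were missing on western blots, so genotype and clone cannot be told apart. The methods also state that disrupted lines received a further inducible Cre construct under puromycin, and whether these cultures had done so is not given in the sources used here.

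Matrix metalloproteinases (Mmp) are zinc enzymes that cut collagens, proteoglycans and other matrix proteins, and most are made as inactive precursors that another protease has to cleave. Adam proteins are membrane-anchored relatives that release growth factors, receptors and adhesion molecules from the cell surface, while the secreted Adamts enzymes trim proteoglycans and procollagens. Tissue inhibitors of metalloproteinases (Timp) block the active sites, and Reck is an inhibitor tethered to the membrane. Fibroblasts are a main source of both enzymes and inhibitors in connective tissue.

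Several secreted Mmp genes lie side by side on chromosome 9 and are known as targets of AP-1, the Fos and Jun factor that answers growth signals and stress. The 10 genes Mmp13, Mmp12, Mmp1b, Mmp3, Mmp1a, Mmp10, Mmp8, Mmp27, Mmp20 and Mmp7 span chr9:7272514-7699585, a stretch of 427 kb. Promoter sequence from RefSeq (GRCm38.p6) was given for 50 of the 80 members, including these 10. The AP-1 motif TGACTCA or its reverse complement TGAGTCA was found within 250 bases before the first listed start of 6 of the 10 cluster genes and of 2 of the 40 other members with a window. It was found in 4.46% of the 32851 windows of all genes. A match of letters is a description of the window and shows no binding. The 100 bases upstream of the start of 4 cluster genes are shown because Mmp10 and Mmp3 gave reads in S1S2 cells while Mmp13 and Mmp1a gave none although their windows hold the motif, which stands in capitals.
Mmp10, chr9:7502242-7502341, strand +: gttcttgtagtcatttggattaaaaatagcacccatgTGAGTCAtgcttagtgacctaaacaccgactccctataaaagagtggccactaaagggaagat
Mmp3, chr9:7445722-7445821, strand +: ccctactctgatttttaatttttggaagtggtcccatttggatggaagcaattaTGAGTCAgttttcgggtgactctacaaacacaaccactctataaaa
Mmp13, chr9:7272414-7272513, strand +: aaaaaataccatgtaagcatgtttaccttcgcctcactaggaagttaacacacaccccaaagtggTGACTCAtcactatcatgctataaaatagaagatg
Mmp1a, chr9:7464041-7464140, strand +: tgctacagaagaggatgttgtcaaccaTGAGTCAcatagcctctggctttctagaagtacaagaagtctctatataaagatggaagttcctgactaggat

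A different kind of promoter lies before 2 members that were nearly silent in WT cells and carried reads in a mutant. The 250 bases upstream of Adam22 held 17 CpG dinucleotides and those of Mmp24 held 33, against a median of 6 over all windows of all genes. They are given with each CG in capitals to contrast them with the cluster, where the median over the first window of each gene was 0.5 and the highest value 4, while a second window of Mmp7 held 7.
Adam22, chr5:8368161-8368410, strand -: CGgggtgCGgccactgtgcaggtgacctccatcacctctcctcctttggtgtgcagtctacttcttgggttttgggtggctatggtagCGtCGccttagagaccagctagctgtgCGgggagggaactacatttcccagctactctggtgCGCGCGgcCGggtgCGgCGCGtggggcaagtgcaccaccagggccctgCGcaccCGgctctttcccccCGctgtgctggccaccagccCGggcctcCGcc
Mmp24, chr2:155775092-155775341, strand +: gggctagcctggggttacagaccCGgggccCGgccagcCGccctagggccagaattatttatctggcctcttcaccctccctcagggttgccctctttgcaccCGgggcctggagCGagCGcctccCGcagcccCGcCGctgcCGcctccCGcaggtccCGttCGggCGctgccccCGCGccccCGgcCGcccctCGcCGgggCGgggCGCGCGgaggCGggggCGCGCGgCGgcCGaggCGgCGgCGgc
Over the members that passed the filter on low counts the median was 15 CpG (22 with a window), and over those that did not pass it was 1 (28 with a window).

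The libraries held 21319778 to 32157623 counts, and 15540 genes passed the filter of edgeR and were tested in 1 fit of all libraries. A gene was called where its adjusted p did not exceed 0.01 and its level changed 2-fold or more, and "rose" and "fell" are used for called genes. Levels are CPM, reads scaled to a common library total, with TMM-scaled library sizes, given as mean ± SD of 3 libraries, and the SE of a log2 fold change was taken from the spread between libraries. Of the targeted genes, Suv39h1 went from 108 to 41.9 CPM and Suv39h2 from 33.9 to 55.2 CPM in S1S2, and Ehmt1 from 103 to 50.2 and Ehmt2 from 125 to 54.2 CPM in G9Gl. A frameshift can leave the transcript in place, so these RNA levels do not test the loss of protein. All 9 fibroblast markers were tested, and their summed level was 9856 to 11358 CPM in WT, 7400 to 7465 CPM in S1S2 and 7794 to 8653 CPM in G9Gl. Of these markers 5 were called lower in S1S2 (Col1a2, Col3a1, Pdgfra, Pdgfrb and Thy1), and in G9Gl Pdgfra and Pdgfrb were lower and Thy1 higher. The 7 macrophage markers summed to 6.05 to 7.01 CPM over all libraries, with Adgre1 at 0 in all of them. Ptprc was at 0 in WT and S1S2 and had 2, 2 and 4 counts in G9Gl. The 4 neutrophil markers reached at most 0.0718 CPM. The 6 epithelial markers summed to 0.297 to 0.548 CPM in WT, 4.70 to 5.59 in S1S2, where Krt8 carried them, and 4.21 to 5.38 in G9Gl, where Krt14 did. The 4 endothelial markers summed to 0.123 to 0.193 CPM in WT, 1.55 to 1.70 in S1S2 and 0.790 to 2.35 in G9Gl. Their part in the results that follow was not tested. In bulk RNA fewer cells of a type and less RNA per cell cannot be told apart.

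Of the 80 members, 23 had no count in any library and 10 more never exceeded 3 counts, the floor used here for detection, so that 33 were not detected. A further 10 passed 3 counts in some library but not the filter, and 37 were tested, namely 13 Adam, 9 Adamts, 11 Mmp and 3 Timp genes and Reck. Adam22 and Mmp10 were at or under 3 counts in every WT library and passed the filter through S1S2 alone, so a difference was given for them in advance. No WT library of Mmp24 reached the level of the filter either, which it passed through the mutants. Likewise no S1S2 library of Mmp16 or Adamts16 and no G9Gl library of Mmp9 reached that level. These genes passed through the other genotypes, where they were higher. Of the 21 Adam genes of the germline group, whose products are best known from testis and sperm, 15 were not detected and 4 were tested. None of the 4 collagenases (Mmp1a, Mmp1b, Mmp8, Mmp13), which cut fibrillar collagen, had a count in any library. Timp4 was at 0 in all 9 libraries, which allows up to 0.0922 to 0.141 CPM per library at 3 counts.

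Per kb of exon, the scale on which genes can be compared, inhibitors were among the most abundant members. In WT cells Timp2 stood at 65.0 CPM per kb, Timp1 at 57.8, Adam9 at 56.0, Timp3 at 45.7, Mmp14 at 34.6, Adam10 at 34.1 and Adamts1 at 25.8. Timp2, Timp1 and Adam9 held the first 3 places in each genotype, and Mmp14 came next in both mutants. At the lower end Mmp24 was at 0.0391 CPM per kb in WT and Mmp10 at 0.

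**Figure D1:**
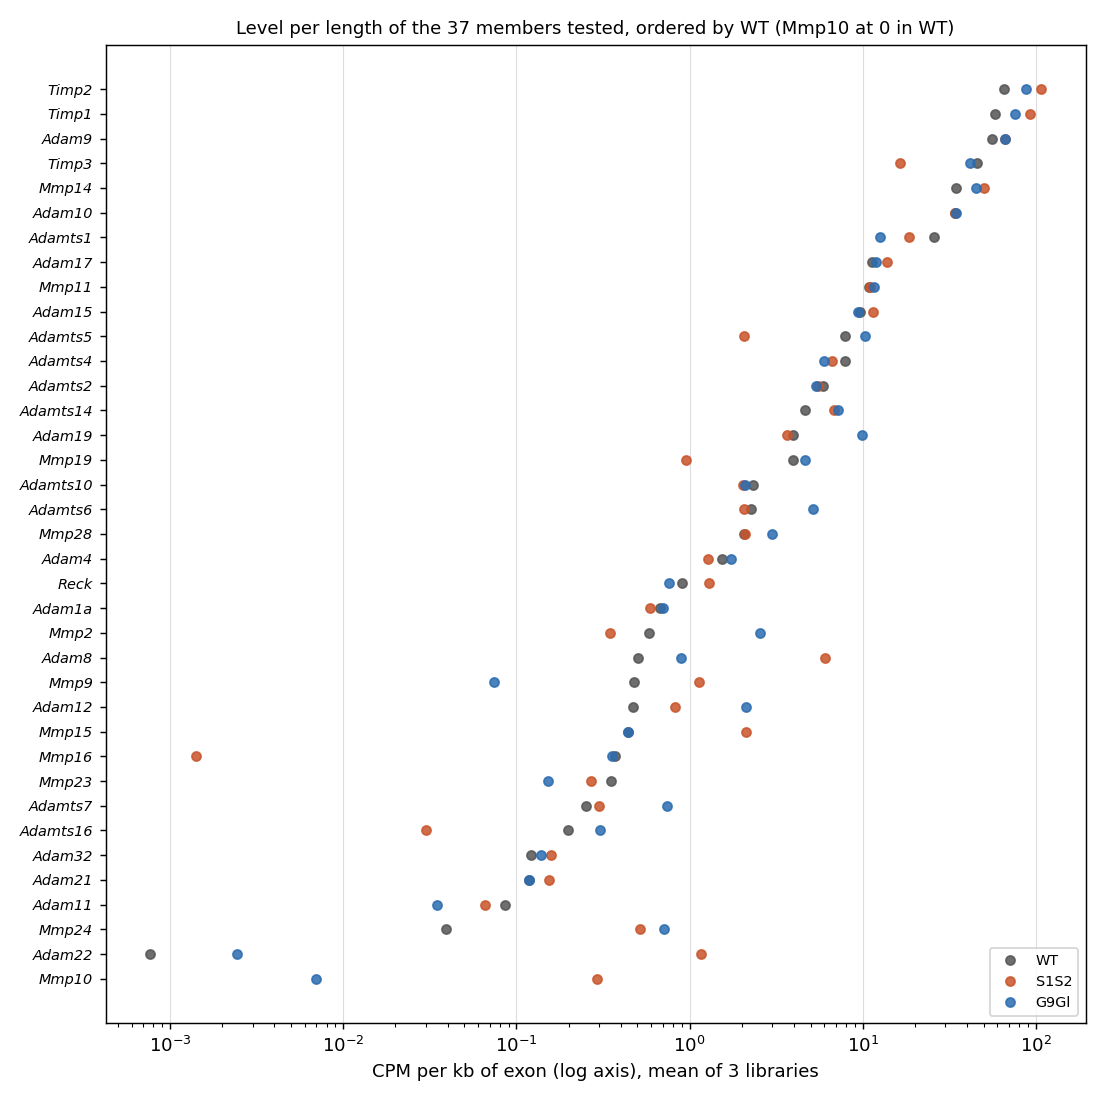
Level of the 37 tested members in CPM per kb of exon (log axis), mean of 3 libraries per genotype, ordered by WT. The upper rows, led by Timp2 at 65.0 CPM per kb in WT, hold points of the 3 genotypes close together except for Timp3, Adamts1 and Adamts5. Points lie far apart in some of the lower rows, such as Adam22, Mmp16 and Mmp24. In others, such as Adam32 and Adam21, they lie close together. Mmp10 is at 0 in WT and has no WT point.

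In S1S2 against WT, 11 of the 37 tested members were called (29.7%), where 9.0% of all tested genes were. Of these, 6 rose (Adam22, Adam8, Mmp9, Mmp10, Mmp15 and Mmp24, against 4.66% of all genes) and 5 fell (Mmp16, Mmp19, Adamts5, Adamts16 and Timp3, against 4.34%). In G9Gl against WT, 9 members were called (24.3%, against 10.2% of all genes). Here 6 rose (Mmp2, Mmp24, Adam12, Adam19, Adamts6 and Adamts7, against 6.77%) and 3 fell (Mmp9, Mmp23 and Adamts1, against 3.40%). Compared directly, G9Gl differed from S1S2 in 15 members (40.5%, against 13.1%), with 10 higher in G9Gl (7.97% of all genes) and 5 lower (5.08%). The 3 comparisons share libraries and are not independent of each other. Adam22 and Mmp10, counted in S1S2 and between the mutants, passed the filter through S1S2 alone, so their calls were given in advance.

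Against the shared WT libraries, Mmp24 was called higher in both mutants and Mmp9 in opposite directions. Mmp23 and Adamts1, called in G9Gl alone, were not called in the direct comparison of the mutants. The median log2 fold change of the tested members was 0.02 in S1S2 and 0.19 in G9Gl, and over all genes it was -0.00 and -0.01. Their median absolute log2 fold change was 0.47 and 0.39, against 0.25 and 0.22 over all genes. By family, 6 of 11 Mmp, 2 of 13 Adam, 2 of 9 Adamts and 1 of 3 Timp genes were called in S1S2, and 4 Mmp, 2 Adam, 3 Adamts and no Timp genes in G9Gl, where 9.0% and 10.2% of all tested genes were. The 19 members never called had log2 fold changes from -0.36 to 0.72 in S1S2 and from -1.31 to 0.63 in G9Gl, the lowest being Adam11 (adjusted p = 0.0124).

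**Figure D2:**
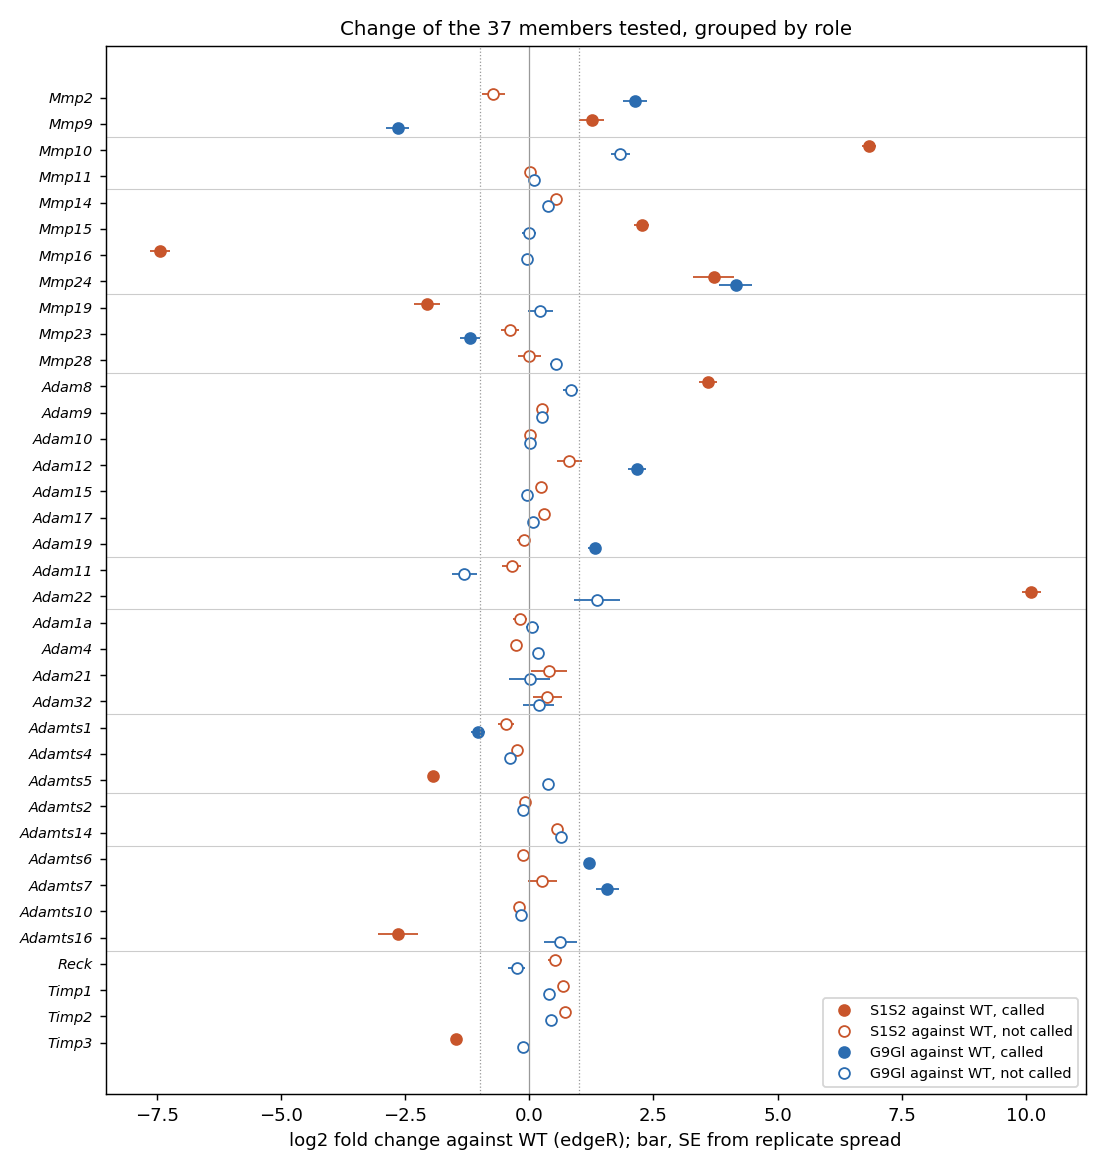
Log2 fold change against WT of the 37 tested members in S1S2 (orange) and G9Gl (blue), grouped by role, with filled points for called members, bars for the SE from replicate spread and dotted lines at a 2-fold change. Filled points of both colours in 1 row are seen for Mmp24 and Mmp9 alone; the points of Mmp10, Adam22 and Mmp16 involve groups with 0 to 3 counts, where the fitted size depends on the prior count and is no bound.

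The gelatinases, which digest denatured collagen and basement membrane collagen, went separate ways. Mmp2 (chr8:92827291-92853420) measured 2.55, 1.62 and 1.71 CPM in the WT libraries, 1.19, 1.35 and 0.987 CPM in S1S2, and 9.93, 7.21 and 8.81 CPM in G9Gl. All G9Gl libraries lay above all others, and Mmp2 rose 4.39-fold (log2 fold change 2.13, SE 0.24, adjusted p = 1.50e-08). In S1S2 its log2 fold change was -0.72 (adjusted p = 0.0177), which was not called. Mmp9 (chr2:164940780-164955850) measured 1.35, 1.42 and 2.29 CPM in WT, 3.68, 4.52 and 3.85 CPM in S1S2, and 0.281, 0.251 and 0.261 CPM in G9Gl. The 3 genotypes did not overlap, with S1S2 on top and G9Gl at the bottom. Mmp9 rose 2.39-fold in the first (1.26 on the log2 scale, SE 0.25, adjusted p = 5.31e-05) and fell 6.29-fold in the second (-2.65, SE 0.24, adjusted p = 1.48e-06). Between the mutants the gelatinases thus differed in opposite directions, with Mmp2 7.26-fold higher and Mmp9 15-fold lower in G9Gl. Mmp9 is also a product of neutrophils and macrophages, whose summed markers did not exceed 0.0718 and 7.01 CPM in any library. Nearly all of the macrophage sum was Cd68 and Cd14. Csf1r had 3, 1 and 21 counts summed over WT, S1S2 and G9Gl, and Ptprc had 0, 0 and 8. The part of such cells in the values of Mmp9 was not tested. Summed per kb, gelatinase RNA was 1.06 ± 0.153 CPM per kb in WT, 1.48 ± 0.167 in S1S2 and 2.64 ± 0.408 in G9Gl.

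**Figure D3:**
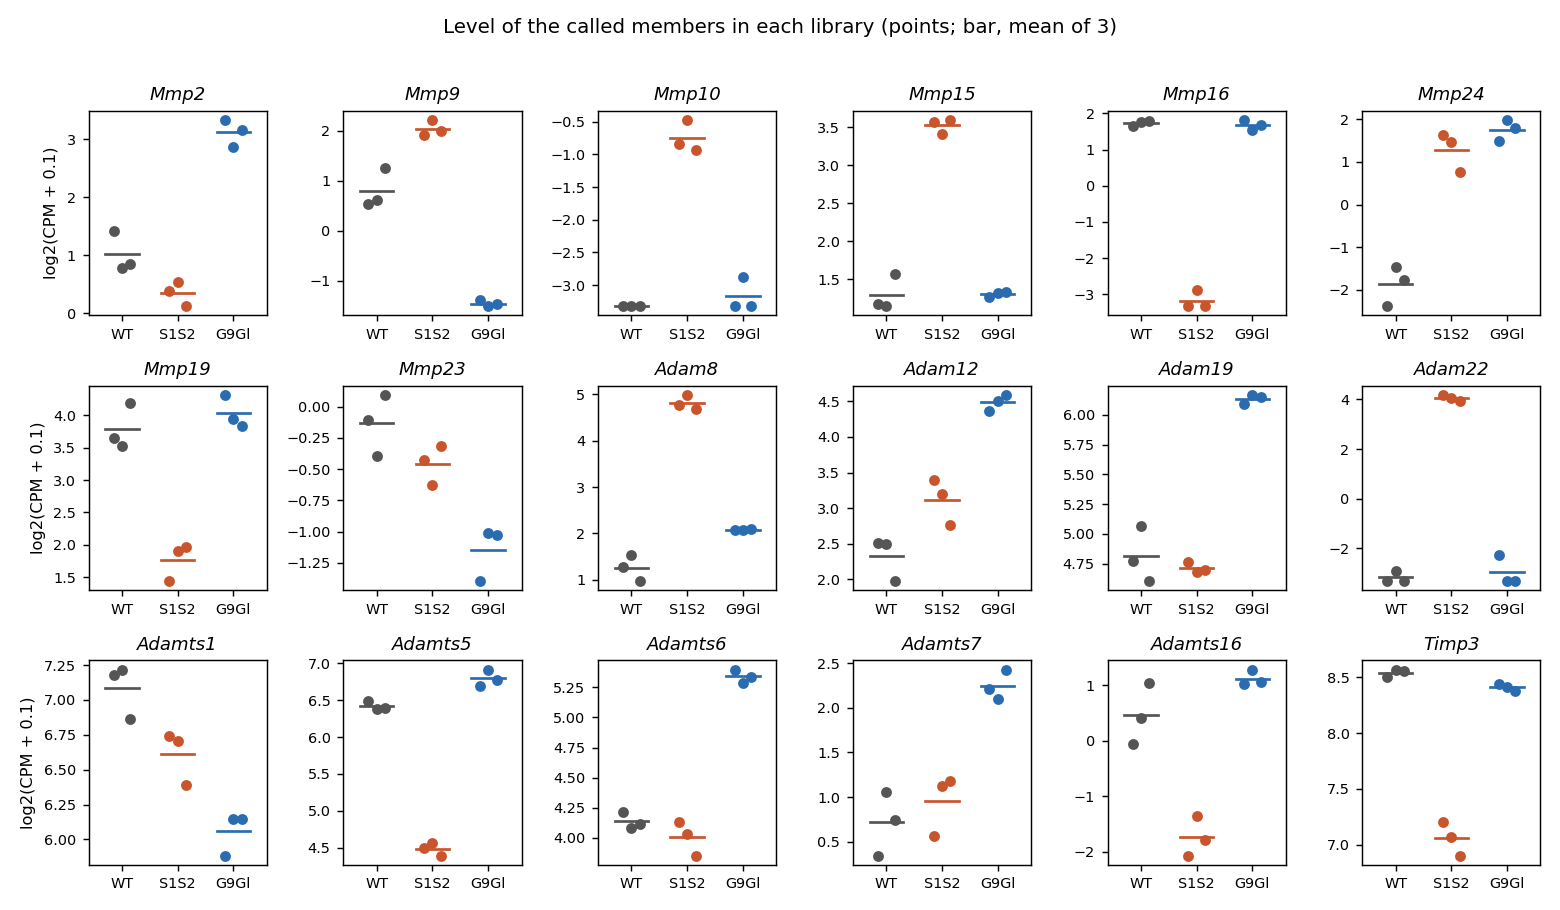
Level of the 18 members called in any comparison in each library, as log2(CPM + 0.1), with a bar at the mean of 3 libraries; each panel has its own axis. The blue points of Mmp2 lie apart above the rest, the orange points of Mmp16, Timp3 and Adamts5 apart below, and the 3 genotypes of Mmp9 form separate steps.

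On the chromosome 9 cluster, whose AP-1 motifs are shown above, 37 of the 50 reads over all libraries lay on Mmp10 and 8 on Mmp3, which encode stromelysins. Stromelysins cut proteoglycans and fibronectin and can activate other Mmp precursors. Mmp10 (stromelysin-2) had 0, 0 and 0 counts in WT, 10, 17 and 9 in S1S2, and 0, 1 and 0 in G9Gl. Every S1S2 library was above every other library, and against the floor of 3 counts per WT library Mmp10 was at least 5.21-fold higher in S1S2 (adjusted p = 2.23e-05). Mmp10 passed the filter through S1S2 alone, so a difference was given in advance. The ratio of S1S2 to G9Gl counts, scaled by library size, was 44.4 with a 95% counting interval of 7.48 to 1803. Mmp3 (stromelysin-1), upstream of it, had 1, 5 and 2 counts in S1S2 and 0 in all other libraries. It did not pass the filter, and in a fit without filter its adjusted p was 0.0281. The other 8 genes of the cluster had at most 1 count summed over the libraries of a genotype. Mmp11 (stromelysin-3), which lies on chromosome 10 outside the cluster, was at 30.1 ± 0.841 CPM in WT, 30.5 ± 0.905 in S1S2 and 32.1 ± 1.51 in G9Gl and was not called.

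**Figure D4:**
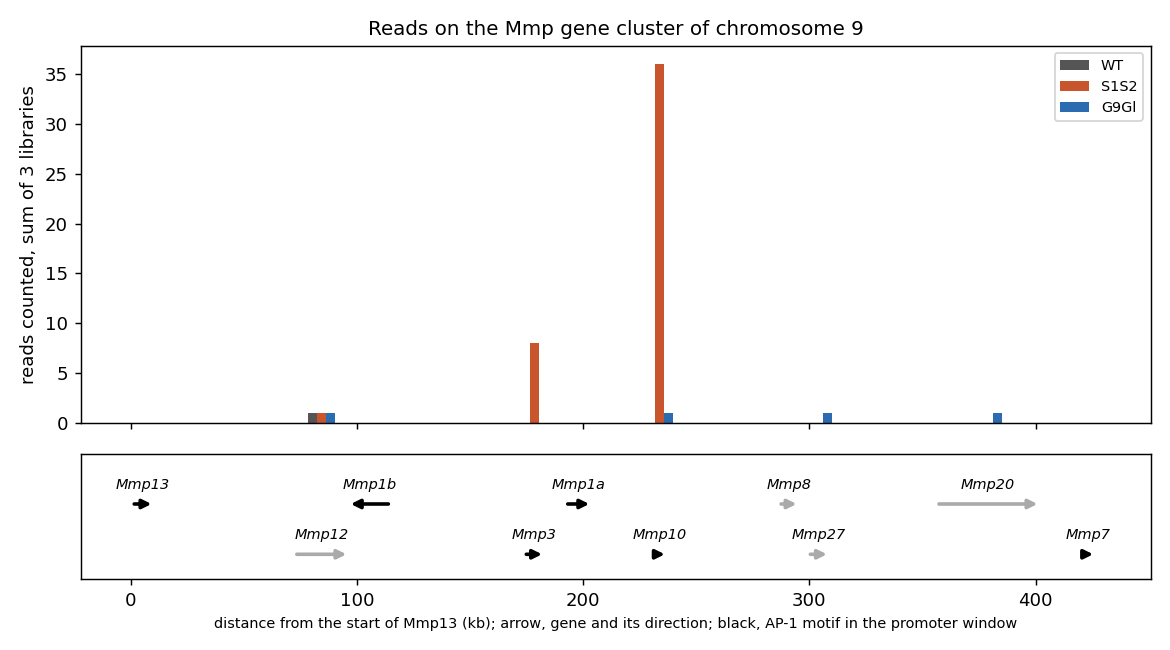
Reads counted on the 10 genes of the Mmp cluster, summed over the 3 libraries of a genotype (upper panel, linear axis), above the position and direction of each gene in kb from the start of Mmp13 (lower panel, black where the first promoter window holds the AP-1 motif). The S1S2 bars of Mmp10 (36 reads) and Mmp3 (8 reads) are the only ones above 1 read.

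Among the membrane-type enzymes, which act at the cell surface and of which Mmp14 activates the precursor of Mmp2, 3 of 4 tested members were called in S1S2 (against 9.0% of all genes) and 1 in G9Gl (against 10.2%). Mmp14 itself was the most abundant Mmp in every genotype. It measured 206, 216 and 196 CPM in WT, 287, 306 and 302 CPM in S1S2 and 266, 272 and 266 CPM in G9Gl. Each mutant lay above WT in all libraries, but by less than 2-fold (log2 fold change 0.53, adjusted p = 1.98e-08 in S1S2, and 0.38, adjusted p = 1.32e-06 in G9Gl), so it was not called. Mmp15 (chr8:95352268-95375080) measured 2.15, 2.11 and 2.87 CPM in WT, 11.8, 10.6 and 12 CPM in S1S2 and 2.31, 2.40 and 2.41 CPM in G9Gl. It rose 4.81-fold in S1S2 (log2 change 2.26, SE 0.15, adjusted p = 2.21e-10), and G9Gl libraries lay within the WT range. Mmp16 (chr4:17852893-18119145) went the other way, with 98, 99 and 104 counts in WT, 0, 1 and 0 in S1S2 and 97, 78 and 94 in G9Gl. In S1S2 it was close to silent, and the ratio of WT to S1S2 counts was 226 (95% counting interval 40.3 to 8961, adjusted p = 2.43e-10). In G9Gl its log2 fold change against WT was -0.05 (adjusted p = 0.804).

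Mmp24 (chr2:155775342-155818366), an enzyme studied mainly in the nervous system, was the only member that rose in both mutants. It measured 0.0922, 0.264 and 0.193 CPM in WT, 2.99, 2.66 and 1.60 CPM in S1S2 and 2.70, 3.84 and 3.39 CPM in G9Gl. The WT libraries were all far below the mutant ones, with a 13.1-fold rise in S1S2 (log2 change 3.71, SE 0.41, adjusted p = 1.60e-07) and a 17.8-fold rise in G9Gl (4.16, SE 0.34, adjusted p = 1.35e-08). The mutants overlapped and were not called different (0.45, adjusted p = 0.102). The 4 neuronal markers (Rbfox3, Snap25, Syt1 and Map2) summed to 0.461 to 1.35 CPM in WT, 0.184 to 0.329 in S1S2 and 1.11 to 2.05 in G9Gl, and their part in the values of Mmp24 was not tested. The CpG-rich window upstream of Mmp24 is printed above. An antisense gene, BC029722, shares 12.2% of the 75-base stretches of Mmp24 exons, and the use of strand in counting is not stated, so part of these reads may belong to it. The sum of all membrane-type Mmp RNA, nearly all of it Mmp14, was 35.4 ± 1.62 CPM per kb in WT, 52.7 ± 1.54 in S1S2 and 46.4 ± 0.651 in G9Gl.

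Of the remaining Mmp genes 3 were tested. Mmp19 (chr10:128790910-128800824), a secreted enzyme of basement membrane proteins, measured 12.5, 11.5 and 18.2 CPM in WT, 2.62, 3.64 and 3.81 CPM in S1S2 and 19.8, 15.3 and 14.1 CPM in G9Gl. It fell 4.16-fold in S1S2 (log2 change -2.06, SE 0.26, adjusted p = 1.23e-07), where all libraries lay below WT, and was not called in G9Gl. Its exons share 23.2% of 75-base stretches with the antisense genes Tmem198b and Gm47093. Mmp23 (chr4:155650655-155653384), a membrane-anchored enzyme, was at 0.819 ± 0.153 CPM in WT, 0.632 ± 0.0800 in S1S2 and 0.356 ± 0.0650 in G9Gl. It fell in G9Gl (-1.19, SE 0.20, adjusted p = 0.00428), a call lost in DESeq2 (adjusted p = 0.0180) and without either WT replicate 1 or 3 or any 1 of the G9Gl libraries. Mmp28 was at 7.99 ± 0.806, 8.05 ± 2.26 and 11.6 ± 1.29 CPM in WT, S1S2 and G9Gl and was not called.

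The sheddases of the Adam family held both stable and moving members. Adam10 and Adam17, the main enzymes that release Notch fragments, tumour necrosis factor and growth factors of the EGF family, were abundant and moved little. Adam10 was at 168 ± 5.06 CPM in WT, 168 ± 5.31 in S1S2 and 170.5 ± 4.28 in G9Gl, with overlapping libraries and log2 fold changes of 0.01 (adjusted p = 0.926) and 0.02 (adjusted p = 0.677). Adam17 was at 81.4 ± 2.09, 99.4 ± 3.07 and 85.2 ± 2.07 CPM, and all S1S2 libraries lay above WT, at a log2 fold change of only 0.29 (adjusted p = 3.47e-05). Adam9, the most abundant Adam gene, was at 230.3 ± 9.53, 274 ± 0.783 and 274 ± 6.97 CPM and was not called, nor was Adam15.

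Adam8 (chr7:139978932-139992562), an inducible sheddase best known from immune cells, measured 2.34, 2.78 and 1.87 CPM in WT, 27.1, 31.6 and 25.6 CPM in S1S2 and 4.14, 4.09 and 4.18 CPM in G9Gl. It rose 12.1-fold in S1S2 (log2 change 3.60, SE 0.18, adjusted p = 2.25e-13). In G9Gl the libraries also lay above WT but within 2-fold (0.83, adjusted p = 1.73e-04). Adam12 and Adam19, which are related enzymes of muscle, bone and heart development, rose in G9Gl. Adam12 (chr7:133883199-134232146) measured 5.56, 5.55 and 3.83 CPM in WT, 10.4, 9.03 and 6.67 CPM in S1S2 and 20.5, 22.7 and 24.0 CPM in G9Gl. The genotypes formed 3 steps without overlap, and the 4.50-fold rise in G9Gl was called (2.17, SE 0.19, adjusted p = 7.71e-10), whereas S1S2 stayed under 2-fold (0.81, adjusted p = 3.42e-04). Adam19 (chr11:46055992-46147343) measured 27.2, 33.4 and 24.2 CPM in WT, 27.0, 25.5 and 25.8 CPM in S1S2 and 68.1, 71.8 and 71.1 CPM in G9Gl. Its rise of 2.49-fold was seen in every G9Gl library (1.32, SE 0.14, adjusted p = 3.97e-10), while S1S2 overlapped with WT. Its exons share 7.07% of 75-base stretches with the antisense genes Gm16033 and Gm16034.

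Adam22 (chr5:8072352-8368160) had the highest ratio between S1S2 and WT among members with a WT count. It belongs, with Adam11 and Adam23, to the neural Adam proteins that lack catalytic activity and bind the secreted Lgi proteins at synapses. It had 0, 1 and 0 counts in WT, 393, 461 and 325 in S1S2, and 3, 0 and 0 in G9Gl. The S1S2 level was 16.7 ± 1.39 CPM, and the scaled count ratio was 1569 against WT (95% counting interval 281 to 62040, adjusted p = 2.38e-13) and 485 against G9Gl (166 to 2356). Adam22 passed the filter through S1S2 alone, so a difference was given in advance. Of the 4 neuronal markers whose sums are given with Mmp24, Rbfox3 was at 0 in all libraries, and Snap25 and Syt1 were at 0 in WT and S1S2 and had 13, 22 and 10 and 1, 6 and 3 counts in G9Gl. Map2 had 15, 19 and 42 counts in WT, 4, 6 and 7 in S1S2 and 29, 29 and 21 in G9Gl, and the part of neuronal cells in the reads of Adam22 was not tested. None of the 4 tested germline Adam genes was called (against 9.0%, 10.2% and 13.1% of all genes in the 3 comparisons), and of these the counts of Adam1a are uncertain because 77.0% of its 75-base stretches recur in other genes.

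The proteoglycan-cleaving Adamts enzymes, which cut aggrecan and versican, had 3 tested members, of which 1 fell in each mutant (against 4.34% of all genes in S1S2 and 3.40% in G9Gl). Adamts5 and Adamts1 are neighbours on chromosome 16, with 53.1 kb between them. Adamts5 (chr16:85856173-85901828) measured 89.4, 82.9 and 83.7 CPM in WT, 22.4, 23.6 and 20.9 CPM in S1S2 and 103, 120.5 and 109 CPM in G9Gl. The genotypes did not overlap, and Adamts5 fell 3.82-fold in S1S2 (log2 change -1.93, SE 0.06, adjusted p = 1.94e-13), while in G9Gl it was 1.30-fold above WT (0.38, adjusted p = 2.88e-05), which was not called. Adamts1 (chr16:85793827-85803113) measured 145, 149 and 117 CPM in WT, 107, 104 and 83.8 CPM in S1S2 and 59.0, 70.8 and 70.8 CPM in G9Gl. It fell 2.04-fold in G9Gl (-1.03, SE 0.14, adjusted p = 9.14e-08), close to the 2-fold limit, while the S1S2 value of -0.47 (adjusted p = 4.73e-04) was not called. The call in G9Gl was lost without WT replicate 1 (-0.99), WT replicate 2 (-0.97) or G9Gl replicate 1 (-0.95), and also at -0.83 when the median shift of chromosome 16 (-0.20) was removed. Of this pair, Adamts5 was thus called in S1S2 and Adamts1 in G9Gl. Summed per kb, this group was at 41.6 ± 3.95 CPM per kb in WT, 27.3 ± 2.11 in S1S2 and 29.0 ± 2.29 in G9Gl.

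A second pair of neighbours, Adamts15 and Adamts8 on chromosome 9, 20.1 kb apart, did not pass the filter but gave reads in G9Gl. Adamts8 had 7, 7 and 9 counts in G9Gl and 0 in the other 6 libraries, at least 2.74-fold above the WT floor of 3 counts per library (adjusted p = 1.25e-04 in the fit without filter). Adamts15 had 9, 8 and 5 counts in G9Gl, 0 in WT and 0, 1 and 0 in S1S2 (adjusted p = 1.63e-04 in that fit). Adamts9 had 11, 4 and 9 counts in WT, 0, 0 and 2 in S1S2 and 0, 0 and 1 in G9Gl, and in the same fit was called in G9Gl (adjusted p = 0.00136) and not in S1S2 (adjusted p = 0.0129). These rest on few reads. Of the 75-base stretches of Adamts8 exons, 7.50% are shared with the antisense gene Gm29724. For Adamts9 the share with the antisense genes A730049H05Rik and Gm15737 is 9.71%. The other untested members over 3 counts (Adam5, Adam30, Adam33, Adamts12, Adamts17 and Mmp17) had 0 to 10 counts per library and were not called without the filter.

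Of the other Adamts genes, Adamts6 and Adamts7 rose in G9Gl. Adamts6 (chr13:104287835-104496695), which acts on microfibrils, measured 18.5, 16.8 and 17.3 CPM in WT, 17.4, 16.2 and 14.3 CPM in S1S2 and 42.1, 39.0 and 40.3 CPM in G9Gl. It rose 2.30-fold (log2 fold change 1.20, SE 0.05, adjusted p = 1.55e-10), with no G9Gl library near the rest. Adamts7 (chr9:90163069-90208071), known for cutting cartilage oligomeric matrix protein, measured 1.17, 1.98 and 1.58 CPM in WT, 1.38, 2.08 and 2.16 CPM in S1S2 and 4.52, 4.20 and 5.28 CPM in G9Gl. The rise was 2.97-fold (1.57, SE 0.23, adjusted p = 3.25e-06), and WT and S1S2 overlapped. Adamts16 (chr13:70727802-70841811), a gene linked to kidney and gonad, measured 0.861, 1.22 and 1.96 CPM in WT, 0.138, 0.291 and 0.188 CPM in S1S2 and 1.93, 2.33 and 1.99 CPM in G9Gl. It fell 6.23-fold in S1S2 (-2.64, SE 0.40, adjusted p = 3.64e-05), and in G9Gl the libraries overlapped with WT (0.63, adjusted p = 0.0531). Without WT replicate 3, the highest of the WT libraries, the G9Gl value was 1.00 and called. Adamts2 and Adamts14, which trim procollagen ends, were not called. Adamts14 was at 24.2 ± 2.29 CPM in WT, 35.4 ± 1.94 in S1S2 and 37.5 ± 1.49 in G9Gl.

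Among the inhibitors, Timp3 stood against Timp1 and Timp2. Timp3 binds to the matrix and, unlike the others, also blocks many Adam and Adamts enzymes. Timp3 (chr10:86300372-86349506) measured 362, 379.5 and 376 CPM in WT, 148, 134 and 119.6 CPM in S1S2 and 346, 341 and 332 CPM in G9Gl. It fell 2.78-fold in S1S2 (log2 change -1.48, SE 0.09, adjusted p = 1.34e-12) and differed little in G9Gl (-0.13, adjusted p = 0.0631). Its exons share 20.6% of 75-base stretches with the antisense gene Syn3, so reads of that gene could be counted in it. Timp1 measured 52.6, 52.3 and 49.0 CPM in WT, 82.6, 83.3 and 81.2 CPM in S1S2 and 62.5, 69.9 and 69.3 CPM in G9Gl. Timp2, which also takes part in the activation of Mmp2 by Mmp14, measured 252, 271 and 237 CPM in WT, 421, 418 and 411 CPM in S1S2 and 332, 348 and 349 CPM in G9Gl. For both genes the order was S1S2, then G9Gl, then WT without overlap. The log2 fold changes stayed under the limit, at 0.68 (adjusted p = 9.13e-09) and 0.39 (adjusted p = 7.96e-06) for Timp1 and 0.72 (adjusted p = 1.05e-09) and 0.44 (adjusted p = 5.21e-07) for Timp2. Neither was called.

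The makeup of Timp RNA differed between the genotypes as well as its sum. Summed per kb, the Timp genes were at 169 ± 6.48 CPM per kb in WT, 216 ± 3.99 in S1S2 and 205 ± 6.51 in G9Gl. Timp3 made up 26.4% to 28.4% of that sum in WT libraries, 6.94% to 8.27% in S1S2 and 19.6% to 21.5% in G9Gl. Reck was at 4.33 ± 0.516 CPM in WT, 6.21 ± 0.841 in S1S2 and 3.62 ± 0.624 in G9Gl. Its S1S2 libraries lay above all others, at log2 fold changes of 0.52 against WT (adjusted p = 0.00746) and -0.77 for G9Gl against S1S2 (adjusted p = 3.40e-04), and it was not called.

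A list of 59 further genes of the system, sorted into 9 roles, was read beside the members. It was drawn up with earlier results of these data known, so its shares of calls are descriptive only. Of these genes 41 were tested. In S1S2 11 were called (26.8%, against 9.0% of all genes), 8 of them higher, in G9Gl 8 (19.5%, against 10.2%), 6 of them higher, and between the mutants 10 (24.4%, against 13.1%). Of these, Tgfa passed the filter through S1S2 alone and Serpine2 and Adamtsl1 through G9Gl alone, so that their differences were given in advance. The median log2 fold change of the tested genes was 0.37 in S1S2 and 0.21 in G9Gl. Of the convertases that cleave the precursors, Pcsk6 was at 1.76 ± 0.443 CPM in WT, 8.94 ± 1.53 in S1S2 and 0.254 ± 0.115 in G9Gl, so that it rose in S1S2 (log2 change 2.36, adjusted p = 1.38e-08) and fell in G9Gl (-2.77, adjusted p = 1.99e-06). Furin, the most widely used of them, was not called. In the astacin group Tll1, a procollagen C-proteinase, was at 3.26 ± 0.429 CPM in WT, 0.358 ± 0.151 in S1S2 and 46.5 ± 1.8 in G9Gl. It fell in the former (-3.13, adjusted p = 3.35e-09) and rose in the latter (3.83, adjusted p = 2.76e-15). Pcolce2, which enhances that processing, rose in G9Gl from 14.4 ± 1.45 to 34.1 ± 2.69 CPM (1.25, adjusted p = 2.51e-09).

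Plasmin activates several Mmp precursors, and genes of plasminogen activation were among those called. Plau, the urokinase gene, rose in G9Gl from 35.8 ± 1.99 to 127 ± 11.2 CPM (log2 fold change 1.83, adjusted p = 3.03e-13). Plat, which encodes the tissue-type activator, rose in S1S2 from 37 ± 0.792 to 82.8 ± 2.5 CPM (1.16, adjusted p = 3.03e-12). Serpine2, which encodes an inhibitor of both activators, had 1 count summed over WT and 71 over G9Gl, a scaled ratio of 76.6 (95% counting interval 13.3 to 3066). Among genes that resemble Adamts without the protease, Adamtsl3 fell in S1S2 from 101 ± 4.02 to 19.8 ± 1.46 CPM (-2.36, adjusted p = 3.44e-14), Adamtsl4 rose there (1.05, adjusted p = 2.04e-07) and Adamtsl1 rose in G9Gl, with 5 counts summed over WT and 58 over G9Gl (scaled ratio 12.5, 95% counting interval 5.06 to 40). Of the proteoglycans cut by Adamts enzymes, versican (Vcan) was at 149.7 ± 7.15 CPM in WT, 172 ± 10.7 in S1S2 and 237 ± 8.43 in G9Gl. All mutant libraries lay above WT but within 2-fold (0.20, adjusted p = 0.00325, and 0.66, adjusted p = 6.99e-09), so Vcan was not called. Hapln4, a link protein, fell in both mutants (-2.07, adjusted p = 2.34e-09, and -1.93, adjusted p = 2.30e-09).

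Of the 5 tested growth factors shed by Adam enzymes 2 rose in S1S2 (against 4.66% of all genes). Tgfa, which passed the filter through S1S2 alone, had 6 counts summed over WT, 583 over S1S2 and 5 over G9Gl, a scaled ratio of S1S2 to WT of 129 (95% counting interval 59.1 to 354). Hbegf rose from 10 ± 0.250 to 38.4 ± 3.60 CPM in S1S2 (log2 change 1.94, adjusted p = 1.32e-12) and was at 18.3 ± 0.446 CPM in G9Gl (0.86, adjusted p = 6.83e-08, not called). Among the 11 tested AP-1 and Ets factors, which are known to act on many Mmp promoters, 2 rose in S1S2 (against 4.66% of all genes) and none was called in G9Gl (against 10.2%). These were Fosl1, at 4.52 ± 1.18 CPM in WT, 13.0 ± 1.41 in S1S2 and 4.27 ± 0.458 in G9Gl (1.52, adjusted p = 2.67e-07 in S1S2), and Etv4 (1.06, adjusted p = 2.15e-06). With the limit on the adjusted p (0.01) but none on the fold, 7 of the 11 were higher in S1S2 and 4 in G9Gl, and none was lower in either, where 20.3% and 19% of all tested genes were higher. The bearing of these factors on the members was not tested.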

How the data were processed

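RNA was sequenced from 9 MEF libraries, 3 per genotype, as paired 75 bp reads of stranded total RNA. Per the labels and the study's methods, the authors aligned reads to GRCm38 with STAR 2.5.2b and deposited raw counts per Ensembl gene from TEtranscripts, which can divide reads that align to several places. The methods call the 3 libraries of a line biological replicates. The annotation release, the use of strand in counting and how the replicate cultures were kept apart are not given in the sources used here, and p-values measure the spread between these libraries of 1 line each. It was assumed that the published methods describe these libraries.

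Symbols and positions came from GENCODE M21 for 47224 genes, and 713 genes did not match. In R 4.3.3, edgeR 4.0.16 (filterByExpr, TMM, quasi-likelihood F test) was fitted to all 9 libraries with a coefficient per genotype, and all adjusted p-values are Benjamini-Hochberg values over the 15540 genes tested, from this fit unless stated. The biological coefficient of variation was 5.36%. Calls needed an adjusted p no greater than 0.01 and a 2-fold difference. The study used DESeq2 and gives a 2-fold limit with a p-value of 0.01, without naming an adjustment there. SEs came from log2 CPM with a prior count of 2. Groups with 0 counts were set to a floor of 3 counts per library, and groups with 1 to 3 counts got an exact 95% interval of the count ratio. Intervals and floors cover counting error only. Sharing between genes was the share of 75-base stretches of a gene's exons found in exons of another gene on either strand. The test was tried on simulated data first. Alternatives were DESeq2 1.42.0, other size factors, filters and thresholds, fits of the compared libraries only, a replicate block, removal of chromosome medians, and leaving out each library.

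Members and lists were chosen with earlier results of these data known. Named were all members called in any comparison, Mmp2, Mmp14, Adam10, Adam17, Reck and the Timp genes, and up to 3 called genes per role of the further list, which was 59 genes by role. The other members are given by counts and ranges, and those named beyond this (Adam1a, Adam5, Adam9, Adam11, Adam15, Adam23, Adam30, Adam33, Adamts2, Adamts8, Adamts9, Adamts12, Adamts14, Adamts15, Adamts17, Mmp11, Mmp17, Mmp28, the genes of the chromosome 9 cluster other than Mmp10, and Furin, Plau and Vcan of the further list) were named after their values were seen. Of the further genes that the naming rule selects, 1 is not reported here by name, though the counts over the list include it.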

Additional observations from a re-analysis of the deposited data

Results flagged for a closer look

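Adamts5 and Mmp9 were the members that met 3 conditions in the edgeR fit, namely an adjusted p no greater than 0.01 against WT in each mutant, opposite signs there, and a call between the mutants. For Adamts5 the log2 fold change was -1.93 in S1S2 and 0.38 in G9Gl, and G9Gl exceeded S1S2 by 2.31 (adjusted p = 6.37e-15), with the G9Gl value against WT short of a 2-fold change. For Mmp9 it was 1.26 in S1S2 and -2.65 in G9Gl, and G9Gl against S1S2 gave -3.91 (adjusted p = 2.03e-09). Both directions held in all 3 libraries of each mutant.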

How the results depend on the processing

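For the 24 named members, 1219 values were recomputed under 17 alternatives. Of these, 1173 kept their direction and side of the threshold, 10 lost a call, 20 gained one and 16 changed sign or went to 0. The value that went to 0 was that of Mmp10 in G9Gl without G9Gl replicate 2. Members called numbered 10 to 11 in S1S2, 7 to 12 in G9Gl and 14 to 17 between the mutants over all settings that kept the call limits. With an adjusted p of at most 0.05 and no fold limit they numbered 24 in S1S2, 20 in G9Gl and 24 between the mutants, and the further genes 28, 29 and 33. Leaving out each library in turn gave 11 members in every fit in S1S2, 7 to 9 in G9Gl and 15 in every fit between the mutants, and 9 to 14, 8 to 9 and 10 to 11 further genes. With at least 10 counts required in every library of a genotype, Mmp10 was not tested (9 counts in S1S2 replicate 3), and 10 members were called in S1S2 and 14 between the mutants. The 10 lost calls were those of Mmp23 and Adamts1 in G9Gl, in the settings named above. Those of Mmp23 were lost on the adjusted p, at log2 fold changes from -1.27 to -1.05. Those of Adamts1 were lost on the fold limit. The gains followed from the looser threshold except that of Adamts16 in G9Gl without WT replicate 3. Libraries with the same replicate number did not deviate together (correlations from -0.0686 to 0.124, 2 of 9 above 0.1), so the numbers are not taken to pair them; with a replicate block 11, 9 and 15 members and 11, 8 and 10 further genes were called.

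No value that changed sign or went to 0 was called. Without the filter Adam10 was at -0.0114 in S1S2 and Mmp15 at -0.0019 in G9Gl, and with chromosome medians removed Adam10 was at -0.0059 in G9Gl and -0.0814 between the mutants and Mmp15 at -0.0076 in G9Gl. Over the fits that left out a library the log2 fold changes in S1S2 ranged from -0.0196 to 0.0215 for Adam10 and from -0.22 to 0.0188 for Adam19. In G9Gl they ranged from -0.0013 to 0.0448 for Adam10, from -0.0749 to 0.158 for Mmp15, from -0.128 to 0.0096 for Mmp16, from -1.75 to 3.11 for Adam22 and from 0 to 2.30 for Mmp10, the last 2 resting on 4 reads and 1 read outside S1S2. The cause of these changes was not tested. Depth limits the members under about 3 counts per library, for which a level up to 0.0922 to 0.141 CPM could not be detected.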
